A study of Mus musculus with 4 samples.

Results

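The cells described here are 483 S-phase-high mouse melanoma cells, the melanoma cells with the highest summed level of 6 genes of DNA replication, out of 10602 cell barcodes in 4 single-cell libraries. Barcodes were first limited to those with at least 300 genes, at least 3000 unique molecular identifiers (UMIs), at most 20% mitochondrial UMIs, at least 10 UMIs of the pigment genes Pmel, Mlana, Tyrp1 and Dct together, no UMI of the leukocyte gene Ptprc, and at least 10% ribosomal protein UMIs. That left 4883 melanoma cells. Of these, 3217 had fewer than 10 UMIs of the mitotic genes Ccnb1, Cdc20, Cenpf, Ube2c, Tpx2 and Birc5 together and are called eligible. The 15% of eligible cells, pooled over libraries, with the highest summed level of Mcm3, Mcm5, Mcm6, Tyms, Rrm2 and Pcna were taken as S-phase-high. The level is in CPM, the UMIs of a gene divided by all gene UMIs and scaled to a fixed total. S-phase-high cells were compared with the other 2734 eligible cells and with the 1666 melanoma cells that had 10 or more mitotic UMIs, called mitotic-rich.

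In G1, the proteins ORC, Cdc6 and Cdt1 load the Mcm2 to Mcm7 helicase onto replication origins, which is called licensing. At the G1/S boundary, cyclin E with Cdk2 frees the E2F transcription factors, which drive many genes of licensing, nucleotide supply and DNA synthesis. In S phase the helicase is activated with Cdc45 and the GINS complex, polymerases copy the DNA behind the sliding clamp Pcna, and new histones are laid down behind the fork. B16F10 is a fast-growing, pigmented mouse melanoma line, and doxorubicin, one of the agents given, is an anthracycline that traps topoisomerase II on DNA.

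The libraries were made from dissociated, unsorted B16F10 tumours grown in mice, with 5′ single-cell RNA sequencing, and there was 1 library for each of 4 groups. The control library came from tumours of the group labelled Control, the aPD-1 library from the group given antibody against the checkpoint receptor PD-1, the D+F library from the group given doxorubicin with fasudil (an inhibitor of ROCK kinases), and the D+F+P library from the group given all 3 agents. All 4 groups carried the same tumour line, and the labels used here give no dose, time, age or number of animals behind a library. With 1 library per group there is no replicate check and no test between groups was possible: each difference below is between libraries, and every interval is a 95% interval that covers counting error only. Runs of 4 values start with control, go on with aPD-1 and D+F, and end with D+F+P.

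The libraries held 2529 to 2809 barcodes and 22691663 to 34444856 UMIs each. Barcodes with Ptprc numbered 118, 656, 394 and 1353. The D+F+P library stood apart in depth: its eligible cells had a median of 27552 UMIs, against 15562 to 18150 in the other libraries, and it gave 24 of the 483 S-phase-high cells, so its values rest on few cells. The S-phase-high cells summed to 4198801, 1439253, 2263891 and 790686 UMIs. Across the series, 69 barcode sequences occurred in more than 1 library, and they included 3, 1, 3 and 0 S-phase-high cells. No doublet caller was run. Requiring no Ptprc UMI takes out melanoma cells joined to a leukocyte with a detected Ptprc transcript, while doublets of melanoma cells with each other may remain. The S-phase-high cells had a median of 17525, 18991, 16451 and 38198.5 UMIs and the other eligible cells 15829, 17932.5, 15494 and 27374.5, and the part that doublets have in the results was not tested. Shares and list values under other treatments of depth are given with the results. Mitochondrial UMIs made up a median of 2.11%, 2.39%, 2.51% and 2.01% in the S-phase-high cells.

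The 6 genes that made the choice are described here without any test. The S-phase-high cells had a median summed level of 1108, 953, 1049 and 1029 CPM, and the other eligible cells 136, 81.7, 88.7 and 86.3 CPM. By gene, Rrm2, a subunit of ribonucleotide reductase, stood at 385, 290, 302 and 254 CPM in the S-phase-high cells, and Mcm3, a helicase subunit, at 235, 195, 227 and 207 CPM. Pcna, the sliding clamp, stood at 139, 139, 130 and 182 CPM. The score was a continuum with no gap at the limit. The lowest cell inside had 671 CPM, from 12 UMIs of 17872, and the highest cell outside had 670 CPM, from 14 UMIs of 20880. Within 10% of the limit lay 52 S-phase-high cells and 48 others. In 270 of the 483 S-phase-high cells the exact Poisson interval of the cell's own score reached below the limit, and in 545 of the other eligible cells it reached above, so the class is a range of the score and not a separate type. All 6 genes were detected in 240 of the S-phase-high cells (49.7%) and in 1.68% of the other eligible cells.

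Genes that the rule did not use followed the score. Over the eligible cells of a library, Spearman's rank correlation between the score and the summed CPM of 116 further S-phase genes was 0.82, 0.70, 0.70 and 0.68 (n = 1056, 727, 1134 and 300 cells). Among the S-phase-high cells alone it was 0.63, 0.66, 0.53 and 0.48. These are descriptions across cells that share a library, and both measures are divided by the same total of UMIs per cell. The rank correlation between the score and that total was 0.16, 0.18, 0.23 and 0.24 over the eligible cells. The label of S phase rests on transcripts alone, since DNA content was not measured.

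**Figure D1:**
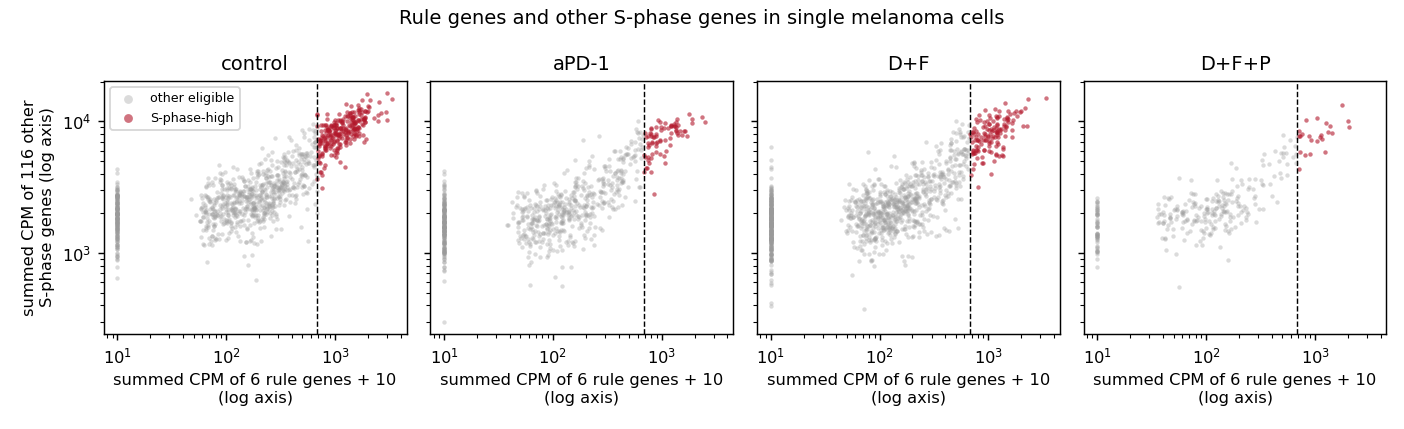
Each point is 1 eligible melanoma cell of the named library. The x axis (log) gives the summed CPM of the 6 rule genes plus 10, the y axis (log) the summed CPM of 116 other S-phase genes, red marks the S-phase-high cells and the dashed line the limit; the cells form 1 continuous band with no gap at the limit, and the D+F+P panel holds 24 red cells.

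Transcripts that define other cell types were scarce in the S-phase-high cells. The 13 T and NK cell markers summed to 86.0, 189, 76.4 and 108 CPM, against 9113, 12781, 9848 and 13517 CPM in the barcodes with Ptprc. Nearly all of that was the chemokine Ccl5, at 84.3, 179, 74.2 and 94.9 CPM. A single cell held 53.9% of the Ccl5 UMIs in aPD-1 and 62.7% in D+F+P. The receptor genes Cd4 and Ncr1 were at 0 in the S-phase-high cells of all 4 libraries, and Cd3e stood between 0.24 and 1.39 CPM. The 14 myeloid markers summed to 18.3, 1.39, 7.51 and 8.85 CPM, against 6879, 3434, 2970 and 1207 CPM in the barcodes with Ptprc. Of 6 endothelial markers, Cdh5, Kdr, Tie1 and Emcn were at 0 in all 4 libraries, while Pecam1 and Egfl7 had UMIs in each. The 6 summed to 11.2, 4.17, 10.2 and 11.4 CPM, against 41.6, 20.9, 16.3 and 22.9 CPM in the barcodes with Ptprc. In the other eligible cells they summed to 9.28, 3.79, 10.2 and 8.59 CPM. The 7 fibroblast markers summed to between 1.26 and 3.1 CPM. The 6 B cell markers summed to at most 5.06 CPM, the 6 keratinocyte markers to at most 1.33 CPM, and no red cell marker had a UMI.

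The control library held the largest share of S-phase-high cells. They made up 249 of 1056 eligible cells in control, or 23.6% (exact Clopper-Pearson interval 21.0% to 26.3%). In aPD-1 they were 75 of 727, or 10.3% (8.20% to 12.8%), in D+F 135 of 1134, or 11.9% (10.1% to 13.9%), and in D+F+P 24 of 300, or 8.0% (5.19% to 11.7%). The control interval lay above the other 3, and the intervals of the 3 treated libraries overlapped. On the log2 scale the share was -1.19 in aPD-1, -0.99 in D+F and -1.56 in D+F+P relative to control. Control thus gave 51.6% of the S-phase-high cells and 32.8% of the eligible cells. Of all melanoma cells, mitotic-rich ones included, the S-phase-high cells were 13.6%, 7.37%, 8.52% and 5.31%, while mitotic-rich cells were 42.2%, 28.6%, 28.5% and 33.6%. The mitotic-rich share depends on depth per cell, since its limit is in UMIs, and D+F+P cells were the deepest. With a limit of 600 CPM instead, 1074 of 1828, 747 of 1018, 1150 of 1585 and 344 of 452 melanoma cells lay below it. By that limit D+F+P had the smallest part of its cells above.

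The position of D+F+P among the treated libraries differed between settings. After every cell was thinned to 3000 UMIs for the score, the shares were 22.3%, 10.9%, 12.6% and 8.33%. With the mitotic limit set at 600 CPM they were 23.4%, 10.7%, 11.1% and 11.0%. Thinning to 10000 UMIs, with every limit applied to the thinned counts, gave 23%, 9.93%, 11.3% and 11.9%. This setting leaves out cells with fewer than 10000 UMIs and lets in cells that the mitotic limit had excluded, so 3359 cells were eligible. Of its 504 S-phase-high cells 256 were also S-phase-high under the rule as given, and in D+F+P 10 of 44 were. Its shares thus describe a partly different set of cells. Control had the highest share in 20 of 20 settings and D+F lay above aPD-1 in 20 of 20, whereas D+F+P was lowest in 17. With the sum of ranks as the score, D+F+P held 11.7% against 10.5% in aPD-1 and 11.8% in D+F, and with no mitotic limit it held 9.51% against 10.1% and 12.1%. Without the barcodes found in more than 1 library the shares were 23.6%, 10.3%, 11.8% and 8.05%.

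**Figure D2:**
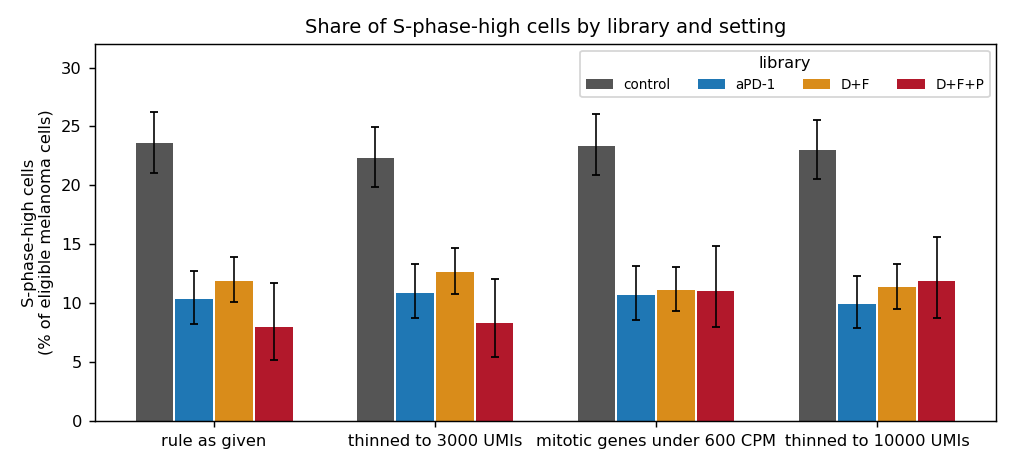
Bars give the share of eligible melanoma cells that were S-phase-high (y axis, %, from 0) in each library under the rule as given and under 3 settings that treat depth per cell otherwise, with exact 95% intervals of counting error as whiskers. Control stands at 22.3% to 23.6% in all 4 settings, and D+F+P moves from 8.0% to 11.9%, where the set of cells also differs.

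Within each library the S-phase-high cells were set against the other eligible cells. UMIs were summed over the cells of each set, a gene was counted as measured where at least 10 UMIs were expected in the smaller sum, and it was called where the CPM differed at least 1.5-fold. The expected count was taken from the UMIs of both sets together. A gene low in either set can thus be measured through its UMIs in the other, and it is then likely to be called. The counts of called genes, those over all genes included, carry this limit. Because the cells were chosen on 6 genes of the same cells, all of these differences are descriptions. Genes of licensing and origin firing were higher in the S-phase-high cells of every library. Of the 14 on the list, 13 of 14 measured were called higher in control (all genes, 9.31%), 10 of 11 in aPD-1 (all genes, 9.99%), 11 of 12 in D+F (all genes, 10.1%) and 9 of 10 in D+F+P (all genes, 12.5%). Their median log2 ratio was 2.42, 2.34, 2.42 and 2.34, where the median of all measured genes was -0.02 to 0.02. Summed, the list stood at 1098 against 269 CPM in control and 1070 against 233 CPM in D+F+P.

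Mcm7, a subunit of the helicase, stood at 97.6, 93.1, 100.3 and 123 CPM in the S-phase-high cells and at 14.5, 11.5, 12.0 and 11.5 CPM in the other eligible cells, log2 ratios of 2.75 (2.50 to 3.01), 3.01 (2.66 to 3.37), 3.06 (2.78 to 3.35) and 3.42 (2.98 to 3.85). Cdt1, the loading factor, stood at 168, 147, 155 and 149 CPM against 29.3, 22.9, 22.3 and 23.3 CPM. Its inhibitor geminin, encoded by Gmnn, stood at 130, 92.4, 119 and 116 CPM against 19.5, 14.3, 15.4 and 13.9 CPM. Factor and inhibitor were thus both higher in the same sets of cells. Cdc6, the ATPase that loads the helicase with Cdt1, stood at 36.2, 26.4, 24.3 and 19.0 CPM against 2.44, 1.85, 2.73 and 1.32 CPM, and too few UMIs were expected in aPD-1 and D+F+P for it to count there. Orc3, a subunit of the origin recognition complex, differed less and was called in aPD-1 alone, at 32.6, 40.3, 31.8 and 29.1 CPM against 31.2, 26.8, 26.8 and 28.9 CPM. Its log2 ratio in aPD-1 was 0.59 (0.16 to 1.0), and the gene not called there was Mcmbp, which encodes an MCM-binding protein, at 0.51 (-0.16 to 1.13).

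Since these genes were high together and E2F factors drive many of them, their promoter windows were searched for E2F-type letters. The windows are RefSeq's, on GRCm38.p6, from 250 bases before to 50 bases after an annotated start, and the letters searched were TTTCCCGC, TTTCGCGC, TTTGCCGC and TTTGGCGC with their reverse complements GCGGGAAA, GCGCGAAA, GCGGCAAA and GCGCCAAA, on both strands, where matches may overlap. Of the S-phase genes outside the rule that had a window, 33 of 95 held a match (34.7%), against 580 of 19407 genes with a window in all (2.99%). By group, a match was held by 8 of 12 genes of G1/S and E2F control, 6 of 12 of licensing, 8 of 19 of polymerases and clamp loading and 0 of 15 of nucleotide supply. Of the rule's own 6 genes, 3 held one. Of the mitotic genes outside the rule 1 of 21 did, and 19 of 21 of these held the letters CCAAT or ATTGG (90.5%), against 8112 of 19407 genes in all (41.8%). No window was found for Gins2, Mcm4 and Ccne2, among others. The windows of E2f1, Mcm2, Ccne1, Chek1, Cdc45, Rrm1, Rrm2, Tk1 and Tyms held no match. Only these exact letters in these windows were searched, so a missing match does not show that a gene lacks E2F sites. A match is a description of the letters and shows no bound factor. The windows of 2 rule genes and of 3 genes outside the rule, chosen because they hold a match, are printed here to show where the letters lie, each read 5′ to 3′ on the gene's strand, with matches in capitals. Mcm3 lies at chr1:20820263-20820562 on the minus strand and holds 2 matches, and Mcm6 at chr1:128359656-128359955 on the minus strand holds 3, of which 2 overlap. The first of 2 windows of Mcm7 lies at chr5:138171834-138172133 on the minus strand with 2 matches, and the second holds none. The others are Cdc6 at chr11:98907901-98908200 on the plus strand with 1 match and the second of 2 windows of Uhrf1 at chr17:56304063-56304362 on the plus strand with 1, whose first window holds none.
Mcm3: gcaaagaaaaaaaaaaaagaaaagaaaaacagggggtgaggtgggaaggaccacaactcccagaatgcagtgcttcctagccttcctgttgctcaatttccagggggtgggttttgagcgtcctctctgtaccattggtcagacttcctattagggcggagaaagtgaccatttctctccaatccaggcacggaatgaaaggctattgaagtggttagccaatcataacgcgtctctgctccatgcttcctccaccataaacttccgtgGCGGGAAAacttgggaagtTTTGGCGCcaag
Mcm6: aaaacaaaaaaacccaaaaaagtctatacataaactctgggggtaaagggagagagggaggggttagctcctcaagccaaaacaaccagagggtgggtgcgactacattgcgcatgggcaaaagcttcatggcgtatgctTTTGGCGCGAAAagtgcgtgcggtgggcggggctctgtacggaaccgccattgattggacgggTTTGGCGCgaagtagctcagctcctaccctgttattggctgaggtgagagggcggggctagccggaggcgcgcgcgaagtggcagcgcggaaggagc
Mcm7: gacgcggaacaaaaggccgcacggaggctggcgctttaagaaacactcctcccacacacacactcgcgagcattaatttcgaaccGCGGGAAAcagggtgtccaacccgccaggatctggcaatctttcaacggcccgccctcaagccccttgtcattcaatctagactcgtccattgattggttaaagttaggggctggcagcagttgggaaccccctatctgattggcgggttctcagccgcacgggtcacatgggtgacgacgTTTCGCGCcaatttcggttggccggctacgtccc
Cdc6: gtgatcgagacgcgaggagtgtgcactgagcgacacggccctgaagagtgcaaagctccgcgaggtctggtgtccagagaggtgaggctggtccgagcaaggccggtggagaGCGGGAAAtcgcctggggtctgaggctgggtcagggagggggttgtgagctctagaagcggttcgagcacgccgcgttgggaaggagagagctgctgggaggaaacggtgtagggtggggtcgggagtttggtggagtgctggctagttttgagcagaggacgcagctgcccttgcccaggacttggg
Uhrf1: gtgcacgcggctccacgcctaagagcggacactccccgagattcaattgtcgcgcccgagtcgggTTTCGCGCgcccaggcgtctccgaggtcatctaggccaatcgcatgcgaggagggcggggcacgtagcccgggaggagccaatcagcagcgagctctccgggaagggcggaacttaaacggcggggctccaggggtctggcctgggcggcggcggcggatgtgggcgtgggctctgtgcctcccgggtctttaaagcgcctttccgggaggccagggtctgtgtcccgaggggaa

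Fork and polymerase genes were higher as a whole. For the lists set against the other eligible cells from here on, the shares of all genes called higher are those given above for licensing. All measured genes of helicase activation and fork protection were called higher: 11 of 11, 6 of 6, 8 of 8 and 3 of 3, out of 11 listed. The filter favours such counts where genes were low in the other eligible cells. Summed with no filter, the 11 listed genes stood at 488, 428, 424 and 521 CPM against 109, 94.3, 93.3 and 93.4 CPM. Clspn, which carries the checkpoint signal from a stalled fork to Chk1, stood at 49.3, 41.0, 38.4 and 41.7 CPM in the S-phase-high cells and at 3.15, 3.79, 2.98 and 2.64 CPM in the other eligible cells. Cdc45, the helicase activator, stood at 44.8, 43.8, 30.5 and 40.5 CPM against 3.78, 3.45, 3.04 and 3.96 CPM. Among polymerases and clamp loading, 23 of 23, 18 of 18, 22 of 22 and 14 of 14 measured genes were called higher, of 23 listed, with medians of 2.09, 2.09, 2.13 and 1.88. The clamp-binding factor Pclaf was the most abundant of these that the rule for named genes took, at 341, 317, 335 and 296 CPM against 26.8, 23, 22.5 and 23 CPM, log2 ratios of 3.67 to 3.89. Lig1, the ligase that joins Okazaki fragments, stood at 133, 149, 148 and 121 CPM against 23.4, 19.3, 20.7 and 17.2 CPM. The 3 subunits of the single-strand binding protein RPA are also on this list, and they were not alike in size: Rpa2 had log2 ratios of 2.60, 2.81, 2.98 and 2.99, and Rpa1 of 1.04, 0.85, 0.93 and 1.12.

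Nucleotide supply differed less than polymerases and clamp loading, with 15 of 16, 12 of 14, 15 of 16 and 10 of 12 measured genes called higher and medians of 1.23, 1.11, 1.25 and 1.46. Tk1, the salvage kinase for thymidine, stood at 228, 190, 194 and 169 CPM against 31.4, 23.5, 22.7 and 12.8 CPM, log2 ratios of 2.86, 3.02, 3.09 and 3.72. Rrm1, the large subunit of ribonucleotide reductase and partner of the rule gene Rrm2, stood at 120, 94.5, 114 and 88.5 CPM against 34.1, 23, 27.3 and 21.5 CPM. Impdh2, an enzyme of guanine nucleotide synthesis, was nearer to equal, with log2 ratios of 0.64, 0.52, 0.66 and 0.36. Tk1 had the highest log2 ratio of the list in each library, and Impdh2 was named from its low end. The pair does not stand for salvage against synthesis, since the synthesis enzyme Rrm1 also differed more than Impdh2.

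For G1/S and E2F control, 13 of 14, 6 of 8, 9 of 10 and 4 of 5 measured genes were called higher. E2f1, an activating E2F, stood at 45.5, 50.7, 46.4 and 59.4 CPM against 11.8, 12.9, 12.9 and 13.3 CPM. Ccne1 and Ccne2 encode cyclin E. Ccne1 stood at 70.5, 54.9, 84.4 and 56.9 CPM against 26.9, 21.5, 20.7 and 21.9 CPM, and Ccne2 at 19.3, 13.2, 23.4 and 12.6 CPM against 1.18, 0.84, 1.33 and 1.59 CPM, with enough UMIs in control alone. Their kinase Cdk2 was called in no library, at 283, 260, 256 and 240 CPM against 230, 215, 237 and 229 CPM. Cyclin transcripts therefore stood apart between the sets where the transcript of the kinase did not pass 1.5-fold.

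Chromatin assembly genes were called higher in 13 of 15, 13 of 15, 14 of 15 and 12 of 13 measured. Uhrf1, which reads hemimethylated DNA behind the fork, stood at 106, 104, 123 and 102 CPM against 16.7, 10.9, 12.6 and 12.7 CPM. Chaf1b, a subunit of the histone chaperone CAF-1, stood at 94.1, 88.2, 101 and 98.6 CPM against 13.8, 11.1, 13.1 and 9.78 CPM. Hells, a chromatin remodeller, had log2 ratios of 2.54, 2.54, 2.63 and 2.62. Slbp, which binds the stem-loop of replication histone transcripts, stood at 155, 129, 118 and 123 CPM against 56.2, 40.2, 43.9 and 41.8 CPM. The histone transcripts themselves did not follow one direction. Histone genes were taken by symbols that start with Hist1h, Hist2h, Hist3h or Hist4h, linker histones included. Replication histone transcripts lack a poly(A) tail, and whether each listed gene makes such a transcript was not checked. The families hold near-identical copies whose reads the counting may split. Of these 67 genes, 16, 5, 9 and 3 were measured. Called higher were 11, 2, 5 and 0, and lower 3, 2, 2 and 3 (lower over all genes, 9.29%, 10.6%, 9.86% and 12.4%). Summed, the 67 genes stood at 259, 133, 303 and 169 CPM against 125, 163, 142 and 164 CPM. The rank correlation between the score and their sum over eligible cells was 0.01, -0.23, -0.07 and -0.23.

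Genes of the response to replication stress and of homologous recombination were called higher in 20 of 22, 9 of 10, 14 of 16 and 4 of 5 measured genes, of 23 listed. Rad51ap1, which helps pair DNA strands during recombination, stood at 80.0, 71.6, 82.6 and 97.4 CPM against 5.19, 4.12, 4.95 and 5.29 CPM, with log2 ratios of 3.95 (3.56 to 4.35), 4.12 (3.61 to 4.64), 4.06 (3.67 to 4.46) and 4.20 (3.63 to 4.79). By the rule for named genes it led all genes outside the rule. Chek1, the checkpoint kinase Chk1, stood at 20.7, 16.7, 26.1 and 17.7 CPM against 1.42, 2.27, 3.23 and 3.17 CPM, and it was measured in control and D+F. Brca1, a mediator of recombination, was not on one side: it stood at 69.5, 51.4, 57.0 and 43.0 CPM against 53.1, 77.3, 63.3 and 74.1 CPM, with log2 ratios of 0.39 (0.19 to 0.59), -0.59 (-0.95 to -0.25), -0.15 (-0.43 to 0.11) and -0.79 (-1.33 to -0.29). Over the 7 groups together, 108 of 115, 74 of 82, 93 of 99 and 56 of 62 measured S-phase genes outside the rule were called higher, and Brca1 in aPD-1 and in D+F+P was the single one called lower. Of the 116 on the lists, 1, 34, 17 and 54 could not be counted in the respective library. Summed with no filter, the 116 stood at 8651, 7579, 8115 and 7964 CPM against 2844, 2385, 2509 and 2405 CPM. With every cell thinned to 3000 UMIs, fewer of the S-phase genes outside the rule reached the expected count, and 64, 16, 38 and 1 were called higher.

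Mitotic genes outside the rule were also higher than in the other eligible cells, although the rule capped 6 of their kind. Of 24 listed, 20 of 23, 7 of 9, 13 of 15 and 3 of 5 measured genes were called higher, and their summed level was 815, 705, 770 and 625 CPM against 255, 177, 195 and 135 CPM. The S-phase-high cells had a median of 4, 4, 4 and 6 UMIs of the 6 capped genes, and the other eligible cells 1, 0, 0 and 1. Top2a, topoisomerase II alpha and the target of doxorubicin, stood at 154, 126, 142 and 88.5 CPM against 22.8, 18.5, 17.4 and 12.4 CPM. Cdk1, the mitotic kinase, stood at 167, 129, 119 and 128 CPM against 28.1, 18.5, 18.7 and 16.0 CPM. By contrast, Ccnb2, cyclin B2, had log2 ratios of -0.44, 0.02, -0.15 and 0.49, and the centromeric histone Cenpa of -0.56, 0.16, -0.04 and 0.13.

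The mitotic-rich cells were the second set for comparison. Against them, mitotic genes outside the rule were called lower in the S-phase-high cells for 24 of 24 measured in control (all genes, 4.63%), 23 of 24 in aPD-1 (7.68%), 22 of 24 in D+F (5.85%) and 21 of 22 in D+F+P (9.33%). Their medians were -1.77, -1.59, -1.84 and -1.88. Here too the limit on mitotic UMIs had set the direction. Cenpa stood at 20.5, 30.6, 27.4 and 21.5 CPM in the S-phase-high cells and at 236, 249, 292 and 274 CPM in the mitotic-rich cells. Licensing genes went the other way, with 8 of 14 called higher in control (all genes, 4.2%), 6 of 12 in aPD-1 (4.23%), 10 of 14 in D+F (5.31%) and 7 of 11 in D+F+P (7.02%). Cdt1, for example, stood at 72.9, 58.6, 51.1 and 61.7 CPM in the mitotic-rich cells, log2 ratios of 1.20, 1.32, 1.60 and 1.27. Polymerase and nucleotide genes were closer to equal, with medians of 0.18 to 0.28 and of 0.08 to 0.25, and Tk1 was lower in the S-phase-high cells by log2 ratios of -0.40, -0.50, -0.28 and -0.04. The mitotic-rich cells themselves had median rule-gene scores of 702, 541, 608 and 500 CPM, so S-phase transcripts were present on both sides of this comparison. The control median lay above the limit of 671 CPM that set the S-phase-high cells. With no mitotic limit, 261 of the 732 cells then taken as S-phase-high were also S-phase-high under the rule as given. The 2 sets are thus not opposite phases of the cycle.

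**Figure D3:**
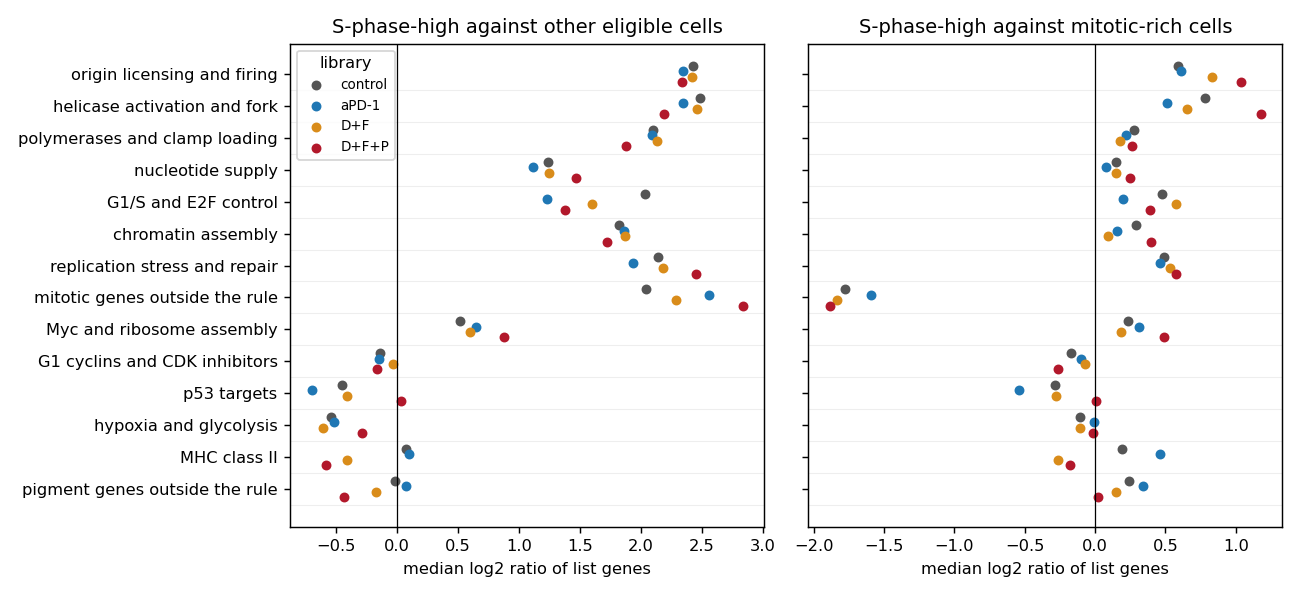
Each point is the median log2 ratio (x axis) of the measured genes of a list (y axis) in 1 library, for S-phase-high cells against other eligible cells on the left and against mitotic-rich cells on the right. The 7 groups of S-phase genes lie at 1.11 or above on the left, and the mitotic genes cross from above 2 on the left to between -1.88 and -1.59 on the right.

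Transcripts lower in the S-phase-high cells than in the other eligible cells included many genes of the response to hypoxia. Of 20 hypoxia and glycolysis genes, 8 of 18, 8 of 17, 9 of 17 and 4 of 17 measured were called lower (all genes, 9.29%, 10.6%, 9.86% and 12.4%). None was called higher, and the medians were -0.54, -0.51, -0.60 and -0.29. Ero1l, an oxidase of the endoplasmic reticulum, stood at 100.3, 167, 202 and 99.9 CPM against 379, 481, 470 and 279 CPM. Bnip3, a mitophagy receptor, stood at 218, 419, 458 and 374 CPM against 605, 848, 812 and 627 CPM, and the carbonic anhydrase gene Car9 at 136, 181, 282 and 204 CPM against 336, 467, 465 and 366 CPM. Each of these 3 was lower in all 4 libraries. Ldha, the lactate dehydrogenase of the same list, was not, with log2 ratios of -0.17, 0.09, 0.12 and 0.28. Against the mitotic-rich cells the list's medians were -0.11, -0.01, -0.11 and -0.02. Single genes went both ways there, from -0.61 to 0.43 in control and from -0.82 to 0.85 in D+F+P.

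Among G1 cyclins and CDK inhibitors none of 11, 10, 10 and 8 measured genes was called higher and 2, 4, 2 and 3 were called lower. Over all genes, 9.29%, 10.6%, 9.86% and 12.4% were called lower. Cdkn1b, which encodes the CDK inhibitor p27, stood at 28.8, 24.3, 20.8 and 10.1 CPM against 44.7, 46.7, 43.3 and 38.1 CPM. Ccnd1, cyclin D1, stood at 183, 173, 194 and 162 CPM against 177, 154, 172 and 134 CPM, and Ccnd2, cyclin D2, was lower with log2 ratios of -0.53, -0.63, -0.53 and -0.61. The 2 D cyclins were thus unlike each other. Mxd4, an antagonist of Myc, stood at 11.0, 6.25, 19.9 and 26.6 CPM against 39.0, 48.1, 59.0 and 68.9 CPM. Kdm5b, a histone demethylase, stood at 5.72, 14.6, 8.39 and 3.79 CPM against 39.1, 40.0, 33.0 and 25.8 CPM. Kcnj13, a potassium channel gene, stood at 2.14, 9.03, 3.98 and 0 CPM against 9.05, 33.1, 28.1 and 48.0 CPM, and its 0 in the D+F+P cells has an upper bound of 4.67 CPM.

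Of 19 p53 targets, 8 of 18, 7 of 12 and 5 of 14 measured were called lower in control, aPD-1 and D+F (all genes, 9.29%, 10.6% and 9.86%) and 1, 1 and 0 higher. In D+F+P 1 of 8 was called lower, near the 12.4% of all genes, none was called higher, and 5 of 8 lay above 0. Cdkn1a, which encodes the inhibitor p21, stood at 190, 149, 227 and 177 CPM against 253, 183, 246 and 140 CPM, with log2 ratios of -0.41 (-0.53 to -0.30), -0.30 (-0.50 to -0.09), -0.12 (-0.25 to 0.02) and 0.34 (0.07 to 0.59). The order of these 4 ratios ran from control, the lowest, to D+F+P, the highest, and neighbours in it had overlapping intervals apart from D+F and D+F+P. Ccng1, cyclin G1, was lower in each library, with log2 ratios of -0.80, -0.77, -0.57 and -0.94. Genes of Myc activity and ribosome assembly were called higher for 8 of 20, 12 of 20, 10 of 20 and 15 of 19 measured and none was called lower. Nop58, a protein of the nucleolus, stood at 261, 195, 185 and 274 CPM against 145, 85.9, 97.8 and 91.6 CPM. Myc itself stood at 43.1, 47.2, 40.6 and 60.7 CPM against 62.9, 55.4, 60.5 and 52.9 CPM, with log2 ratios of -0.55 (-0.79 to -0.31), -0.23 (-0.61 to 0.13), -0.57 (-0.90 to -0.26) and 0.20 (-0.26 to 0.63). The Myc ratio was thus below 0 in control, aPD-1 and D+F and above 0 in D+F+P. The intervals of counting error in aPD-1 and D+F+P included 0.

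The S-phase-high cells of each treated library were then set against those of control. These 3 comparisons share the control cells, so their values are given side by side and no overlap between them is read. S-phase genes outside the rule stood slightly lower in the treated libraries, with medians of -0.25 in aPD-1, -0.08 in D+F and -0.15 in D+F+P, where the median over all measured genes was -0.08, -0.06 and -0.09. Called lower were 12 of 113 in aPD-1 (all genes, 8.34%), 5 of 115 in D+F (7.15%) and 17 of 105 in D+F+P (13.2%), and called higher 1 (4.23%), 1 (4.07%) and 3 (6.29%). Pclaf stood at 341, 317, 335 and 296 CPM and Mcm2, another helicase subunit, at 215, 204, 235 and 200 CPM. Top2a stood at 154, 126, 142 and 88.5 CPM, log2 ratios to control of -0.28 (-0.53 to -0.04), -0.12 (-0.31 to 0.08) and -0.80 (-1.17 to -0.44), with -0.30, -0.39 and -0.88 in the other eligible cells. Fbxo5, whose product Emi1 restrains the anaphase-promoting complex from S phase on, stood at 38.1, 18.1, 20.8 and 5.06 CPM, the last from 4 UMIs, and its log2 ratio in D+F+P was -2.91 (-4.81 to -1.53).

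MHC class II genes showed the largest difference of the lists described between libraries. These genes present peptides to CD4 T cells, and in melanoma cells they are induced by interferon gamma through the transactivator Ciita. In the S-phase-high cells all 7 measured were called higher in aPD-1 (all genes, 4.23%), 6 of 7 in D+F (4.07%) and 6 of 6 in D+F+P (6.29%). The list has 10 genes, and the medians were 1.81, 0.89 and 1.86. Summed, they stood at 1188, 4076, 1898 and 3745 CPM, and in the other eligible cells at 1229, 3848, 2624 and 5684 CPM. The S-phase-high cells and the rest were therefore close in control and aPD-1, while in D+F and D+F+P the S-phase-high cells stood lower, by log2 differences of -0.47 and -0.60 in the sum.

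Cd74, the invariant chain, stood at 846, 2820, 1252 and 2384 CPM in the S-phase-high cells, with a median cell at 550, 2538, 953 and 2155 CPM. Its log2 ratios to control were 1.74 (1.67 to 1.80), 0.57 (0.49 to 0.64) and 1.49 (1.41 to 1.57), and in the other eligible cells 1.56, 0.96 and 1.98. H2-Eb1, a class II beta chain, stood at 63.6, 325, 149 and 358 CPM, log2 ratios of 2.35 (2.13 to 2.58), 1.23 (1.0 to 1.47) and 2.49 (2.25 to 2.74). Each treated library was above control in both genes, with D+F lowest of the 3. H2-Aa, the class II alpha chain, stood at 128, 502, 241 and 503 CPM in the S-phase-high cells and at 122, 508, 351 and 875 CPM in the rest. Ciita had few UMIs, at 3.81, 16.7, 7.95 and 12.6 CPM, and it was measured in aPD-1 and D+F.

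Leukocytes also carry class II transcripts, and their number differed between libraries. Cd74 stood at 2803, 3310, 2961 and 1216 CPM in the barcodes with Ptprc, so that the level in the S-phase-high cells was 30.2%, 85.2%, 42.3% and 196% of it. Ctss, a protease gene that leukocytes express together with Cd74, stood in the S-phase-high cells at 0.45%, 0.21%, 0.45% and 3.21% of its level in those barcodes, from 7, 1, 3 and 4 UMIs. The myeloid genes Lyz2, Fcer1g and Tyrobp were at 0 in the S-phase-high cells of aPD-1. They had 5, 19 and 11 UMIs in those of control, 1, 3 and 0 in D+F, and 0, 4 and 1 in D+F+P. Other class II genes lay on both sides of Cd74. H2-Ab1 stood at 10.1%, 25.2%, 16.2% and 89.2% of its level in the barcodes with Ptprc and H2-Eb1 at 12.6%, 40.9%, 23.3% and 128%. H2-DMb1 stood at 66.3%, 107%, 123% and 261%. Each of these fractions was larger than that of Ctss. Whether leukocyte RNA adds to the class II levels was not tested.

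Interferon gamma response genes were higher as well: 13 of 16 measured were called higher in aPD-1 (all genes, 4.23%), 10 of 17 in D+F (4.07%) and 13 of 15 in D+F+P (6.29%). The list has 19 genes, and the medians were 1.02, 0.77 and 1.15. Their summed level per cell had a median of 1217, 2191, 2084 and 4157 CPM, with quartiles of 684 to 2282 in control and 2480 to 6174 in D+F+P. Irf1, a transcription factor induced by interferon gamma, stood at 65.0, 165, 209 and 234 CPM, log2 ratios of 1.34 (1.08 to 1.60), 1.69 (1.47 to 1.91) and 1.85 (1.57 to 2.12), and in the other eligible cells of 1.07, 1.23 and 1.42. Gbp2, a guanylate-binding protein, stood at 73.4, 183, 158 and 281 CPM. For these 2 genes every treated library lay above control, and D+F+P was highest. Cd274, which encodes PD-L1, the ligand of PD-1, stood at 11.0, 27.1, 20.8 and 25.3 CPM, log2 ratios of 1.31 (0.65 to 1.95), 0.92 (0.30 to 1.54) and 1.21 (0.37 to 1.99). The chemokine gene Cxcl9 was the one called lower in each treated library, at 16.2, 2.08, 4.86 and 3.79 CPM, and 33.8% of its UMIs in the control cells lay in 1 cell. Its levels in aPD-1 and D+F+P rest on few UMIs. In the other eligible cells of D+F+P all 19 listed genes, Cxcl9 among them, were called higher (all genes, 6.91%). In those of D+F none of the 19 was called lower, and in those of aPD-1 1 was.

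Genes of MHC class I, the route by which CD8 T cells see peptides, were called higher for 8, 4 and 11 of 16 measured (all genes, 4.23%, 4.07% and 6.29%) and none was called lower. Tap1, a peptide transporter, stood at 56.7, 117, 94.1 and 135 CPM. H2-T23, a nonclassical class I gene, stood at 6.91, 28.5, 15.9 and 58.2 CPM, and its log2 ratio in D+F+P of 3.07 (2.37 to 3.80) led the genes named there. Class I genes include near-identical copies, so the split of reads among them is uncertain. Type I interferon genes were called higher for 8 of 18, 3 of 18 and 0 of 14 measured (all genes, 4.23%, 4.07% and 6.29%) and lower for 1, 0 and 2 (all genes, 8.34%, 7.15% and 13.2%). Their sum was higher than in control in each treated library, by log2 differences of 0.48 (0.42 to 0.53), 0.19 (0.14 to 0.23) and 0.32 (0.25 to 0.39). In the other eligible cells of D+F+P 11 of 20 were called higher (all genes, 6.91%), and the sum differed by 0.51 (0.49 to 0.53). Ifit3, an interferon-induced gene, stood at 113, 185, 125 and 62.0 CPM in the S-phase-high cells, and 30.6% of its D+F+P UMIs lay in 1 cell.

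**Figure D4:**
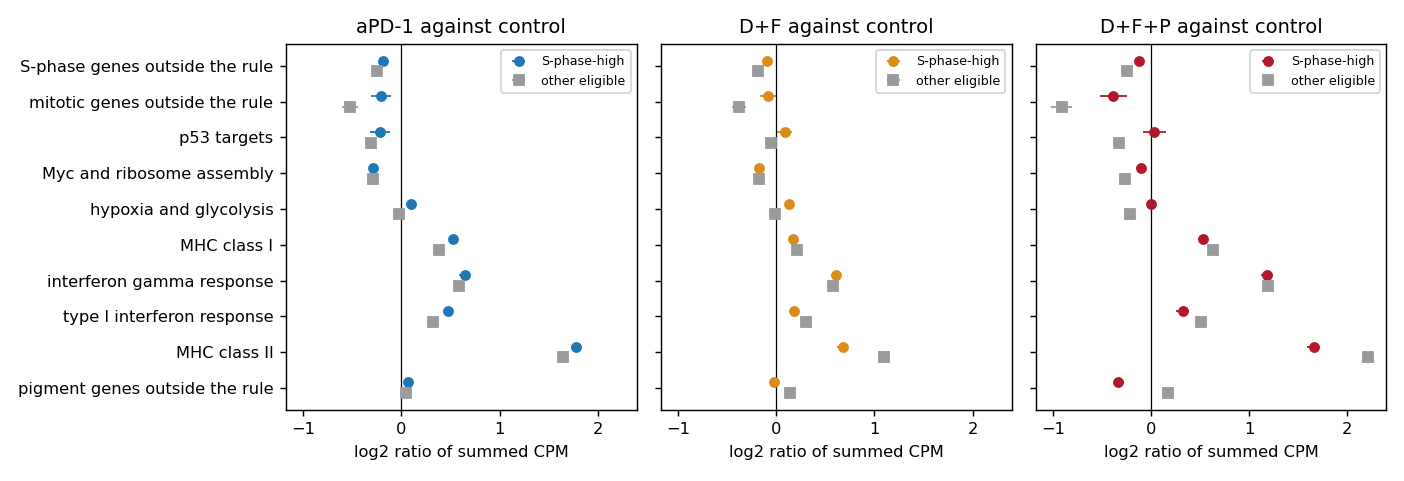
Log2 ratio of summed CPM (x axis) of each gene list (y axis) in the named treated library against control, with circles for S-phase-high cells, squares for the other eligible cells and whiskers for the 95% interval of counting error. MHC class II stands at 1.78, 0.68 and 1.66 in the S-phase-high cells and at 1.65, 1.09 and 2.21 in the rest.

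Hypoxia genes summed lower in the S-phase-high cells than in the other eligible cells of the same library, by log2 differences of -0.35, -0.22, -0.21 and -0.14. Against the S-phase-high cells of control, their sum was higher in aPD-1 by a log2 difference of 0.10 (0.08 to 0.12) and in D+F by 0.13 (0.11 to 0.15), and in D+F+P the difference was -0.0030 (-0.032 to 0.026). In the other eligible cells the sums differed from control by -0.0289, -0.0133 and -0.22. Gene by gene in the S-phase-high cells, 6 of 17, 7 of 17 and 2 of 16 measured were called higher than in control (all genes, 4.23%, 4.07% and 6.29%) and none lower. The medians were 0.41, 0.33 and 0.30, and in D+F+P 9 lay above 0 and 7 below. In the other eligible cells the medians were 0.20, 0.20 and -0.08. Bnip3 had log2 ratios to control of 0.94 (0.79 to 1.09), 1.07 (0.94 to 1.20) and 0.78 (0.59 to 0.97) in the S-phase-high cells and of 0.49, 0.43 and 0.05 in the rest. Of the p53 targets 0, 2 and 0 were called higher (all genes, 4.23%, 4.07% and 6.29%) and 4, 2 and 1 lower (all genes, 8.34%, 7.15% and 13.2%), of 10, 13 and 7 measured, so the D+F+P count is near the share of all genes. Cdkn1a had log2 ratios to control of -0.35 (-0.57 to -0.13), 0.26 (0.09 to 0.42) and -0.10 (-0.37 to 0.16), so in neither library given doxorubicin was it 1.5-fold above control.

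Other genes that the rule for named genes took were as follows. In aPD-1 the leading higher genes were all of MHC class II, namely H2-Eb1, H2-Aa, Cd74, H2-Ab1 and H2-DMa. The leading lower ones included the linker histone Hist1h1e, at 55.3, 17.4, 78.6 and 15.2 CPM, and Fabp5, a fatty acid-binding protein, at 1319, 665, 669 and 822 CPM. Hist1h1e was thus high in control and D+F and low in both libraries given the antibody, while Fabp5 was highest in control. In D+F, Cited1, a transcriptional coactivator, stood at 24.8, 67.4, 63.2 and 62.0 CPM, and the cytoskeletal genes Espn at 15.5, 20.1, 51.7 and 34.1 CPM and Map1b at 91.5, 58.4, 32.7 and 46.8 CPM. Espn was highest and Map1b lowest in D+F.

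The D+F+P cells stood apart in a further set of genes. Yrdc, an enzyme of transfer RNA modification, stood at 18.8, 20.1, 19.0 and 109 CPM, with a log2 ratio to control of 2.53 (2.07 to 2.99) and of 1.91 in the other eligible cells. Maff, a small Maf transcription factor, stood at 11.2, 15.3, 26.1 and 68.3 CPM, and the GTPase gene Rac1 at 96.9, 108, 111 and 315 CPM. In these 3 genes D+F+P was above the other 3 libraries. Lars2, the mitochondrial leucyl-tRNA synthetase, stood at 530, 391, 314 and 121 CPM, and Enpp2, which encodes autotaxin, at 90.0, 59.8, 59.2 and 25.3 CPM. Both were lowest in D+F+P, and for Lars2 the log2 ratio to control was -2.13 (-2.44 to -1.83), against -1.0 in the rest. Pigment genes outside the rule were called lower for 4 of 13 in D+F+P against control (all genes, 13.2%) and none was called higher (6.29%). Tyr, the enzyme that starts melanin synthesis, stood at 265, 279, 256 and 159 CPM in the S-phase-high cells and at 274, 257, 287 and 301 CPM in the rest.

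**Figure D5:**
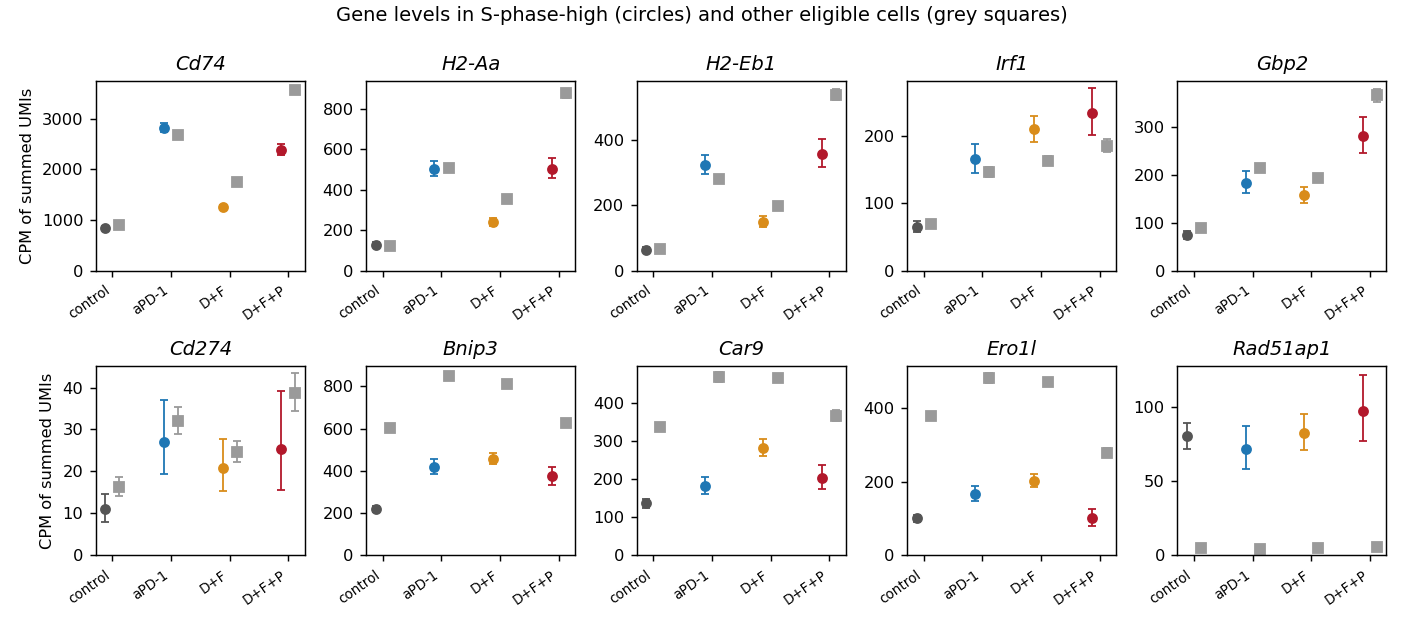
CPM of summed UMIs (y axis, linear, from 0) of 10 genes in the S-phase-high cells (circles) and the other eligible cells (grey squares) of each library (x axis), with exact 95% intervals of counting error. Cd74 in the S-phase-high cells stands at 846, 2820, 1252 and 2384 CPM, below the rest in D+F and D+F+P, and Rad51ap1 stands at 71.6 to 97.4 CPM in circles and at 4.12 to 5.29 CPM in squares.

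Adding the antibody to doxorubicin and fasudil was read from D+F+P against D+F. In the S-phase-high cells 5 of 6 measured MHC class II genes were called higher in D+F+P (all genes, 6.47%), with a median of 1.05, and 6 of 15 interferon gamma response genes. H2-Eb1 had a log2 ratio of 1.26 (1.03 to 1.49) and Irf1 of 0.16 (-0.09 to 0.41). S-phase genes outside the rule were called higher for 6 and lower for 8 of 106 (lower over all genes, 9.19%). Adding doxorubicin and fasudil to the antibody was read from D+F+P against aPD-1. None of 7 measured MHC class II genes was called in either direction in the S-phase-high cells (all genes, 8.28% higher and 9.51% lower), with a median of 0.00, while in the other eligible cells 9 of 10 were called higher (all genes, 4.33%), with a median of 0.85. H2-Aa had a log2 ratio of 0.00 (-0.18 to 0.18) in the S-phase-high cells and of 0.78 in the rest.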

How the data were processed

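Single-cell 5′ gene expression was measured in 4 libraries of B16F10 tumours, 1 per group. Per the file headers, each deposited matrix is a sparse table of integer UMI counts, with 31053 genes by called barcodes. The submitters' processing notes name Cell Ranger 3.1.0 and the build GRCm38 (mm10). Later filters by the authors are not given in the sources used here. The libraries held 22691663 to 34444856 UMIs, and no other normalization was applied to the deposited counts before CPM were computed.

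Cells were chosen by the limits stated above. UMIs were summed over the cells of a set and library and scaled by the summed UMIs of all genes there. Levels carry exact Poisson intervals, ratios exact conditional binomial intervals and shares exact Clopper-Pearson intervals, all at 95%; UMIs of a cell set are not independent samples of a condition, and no p-value was computed. A gene counted as measured at an expected 10 UMIs in the smaller sum and as called at 1.5-fold. The members and the 28 gene lists were chosen with earlier results of these data known. Named genes were the 15 with the highest smallest lower bound and the 10 with the lowest largest upper bound over the 4 libraries against the other eligible cells. Between libraries they were 5 each way per treated library against control, 3 each way for D+F+P against D+F and again against aPD-1, up to 4 at each end of a list, and Cdkn1a, Top2a, Chek1, Rrm1, Cdc6, Ccne1, Ccne2, Myc, Cd274 and Ciita, with 1 more gene that is not reported here. In the set where it was higher, a candidate had no cell with over 20% of its UMIs. Between libraries it also had, in that set, at least 25% of the level in barcodes with Ptprc. The set where a gene was lower was not held to these limits. Unnamed models and mitochondrial, ribosomal protein, globin, antibody and antigen receptor genes were left out. List members named for their role and not for their rank were chosen after their values were seen. The scripts were tested on simulated data. Python 3.11.15, NumPy 2.4.6, SciPy 1.17.1, pandas 2.3.3 and matplotlib 3.10.9 were used. Promoter windows came from RefSeq tables on GRCm38.p6. Alternatives covered the limit on the score, depth, the mitotic limit, scaling, the filter on low counts and shared barcodes. The receptor contigs were not used here.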

Additional observations from a re-analysis of the deposited data

How the results depend on the processing

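With 1 library per group, nothing here measures the spread between animals, and leaving out a replicate was not possible. No paired analysis was possible because each group has 1 library. The D+F+P values rest on 24 cells, and low genes there could not be counted. The main values are the shares, the summed S-phase, interferon gamma and MHC class II genes, and the number of S-phase genes called higher. Those that moved beyond their own counting interval, and counts that moved past 1.5 times, are these, as log2 ratios unless counts are named. The share of S-phase-high cells against control was -1.57 in aPD-1 with the top 10% and -1.68 with the limit taken from control cells, and in D+F+P it was -0.95 with the sum of ranks and -0.95 after thinning to 10000 UMIs (added after seeing the data). Summed S-phase genes against the other eligible cells were 1.52 in control, 1.72 in aPD-1 and 1.69 in D+F+P with the top 10%, 1.63, 1.76 and 1.81 with mitotic genes under 600 CPM, 1.64 in control, 1.78 in D+F and 1.79 in D+F+P with the mean of per-cell CPM, and 1.32, 1.49, 1.59 and 1.47 in the 4 libraries after thinning to 3000 UMIs. The number of S-phase genes called higher, 108, 74, 93 and 56 as reported, was 64, 16, 38 and 1 after thinning to 3000 UMIs, since fewer genes then reach the expected count. It was 41 in aPD-1, 60 in D+F and 16 in D+F+P with an expected count of 30, 32 in D+F+P with the top 10% and 109 in D+F+P with no filter. Against control, summed S-phase genes were -0.10 in aPD-1 with the top 10%, -0.14 with the top 20% and -0.14 with mitotic genes under 600 CPM, which gave -0.027 in D+F+P. They were -0.0433 in D+F and -0.24 in D+F+P after thinning to 3000 UMIs, and -0.11, -0.0293 and -0.0307 with median-of-ratios scaling. Summed interferon gamma genes were 0.79 in aPD-1 with the top 10%, 0.53 in D+F and 1.0 in D+F+P with the top 20%, 0.51, 0.49 and 1.02 with mitotic genes under 600 CPM, 0.73, 0.71 and 1.42 after thinning to 3000 UMIs, 0.59 in aPD-1 and 1.30 in D+F+P with the mean of per-cell CPM, and 0.72, 0.67 and 1.27 with median-of-ratios scaling. Summed MHC class II genes were 1.88, 0.75 and 1.49 with the top 10%, 1.71 in aPD-1 with the top 20%, 0.82 in D+F with mitotic genes under 600 CPM, 0.59 in D+F and 1.75 in D+F+P after thinning to 3000 UMIs, 1.84 in aPD-1 and 1.76 in D+F+P with the mean of per-cell CPM, and 1.86, 0.74 and 1.75 with median-of-ratios scaling. Every one of these kept its direction. The single reversal was Smc2 in D+F+P against the other eligible cells, at -0.24 after thinning to 3000 UMIs, where it was 3.15 as reported. The cause of each move was not tested. Of the main values under all alternatives, 126 stayed within their interval and 61 moved. Among the remaining gene and list values, 1339 stayed, 318 moved and 1 reversed, and those that moved are not listed here.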
